A study of Homo sapiens with 8 samples.

Results

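The genes described here encode the cytosolic ribosomal proteins, the protein part of the 40S and 60S subunits of the human ribosome. They were chosen by name: RPL or RPS followed by digits and at most 1 suffix letter X, A or L, together with RPLP0, RPLP1, RPLP2 and RPSA, and only protein-coding genes. The rule found 81 genes, 32 of the 40S and 49 of the 60S subunit, among 43627 genes in the 2 deposited tables. The rule used no measured value.

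RNA-seq was done on MDA-MB-231 cells, an established human cell line of triple-negative breast cancer, a type that lacks the oestrogen and progesterone receptors and ERBB2 amplification. The 4 groups were cells given DMSO vehicle for 12 h, EMD37 at 0.5 µM for 12 h, DMSO vehicle for 24 h, and EMD37 at 0.5 µM for 24 h, with no allele or other agent named. EMD37 is known here only by its code name. Each group had 2 libraries, marked A and B, and nothing in the labels says that these came from separate cultures, so the p-values speak only of how far these libraries differ among themselves.

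Every ribosome needs nearly all ribosomal proteins, and their genes are among the most highly transcribed in dividing cells. Their mRNAs are the best known members of the 5′ terminal oligopyrimidine (TOP) class, which start with C followed by a run of pyrimidines and whose translation is tuned by the kinase complex mTORC1 through the RNA-binding protein LARP1. The libraries measured mRNA levels, not translation.

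Reads per library ranged from 8.99 M to 11.44 M (M, mega) in the count table. The cells' identity was checked on marker lists. The summed level of 6 markers of this mesenchymal line (VIM, CD44, ZEB1, AXL, CAV1, SNAI2) was 3992 to 6046 CPM, counts per M reads of the library. The lowest sums were in the EMD37 libraries at 24 h (3992 and 4141). At that time 4 of the 6 were called lower, as were 1 of 5 tested luminal breast markers and 21.1% of all genes tested. Luminal breast markers summed to 345 to 489 CPM, 4 leukocyte markers to 0.44 to 1.39 CPM and 4 fibroblast markers to 1.85 to 4.28 CPM, and no marker was at 0 in every library.

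Most annotated starts of these genes had a pyrimidine run at or near them, which is shown first. The search was looser than the TOP definition, since the start itself did not have to be C. RefSeq promoters (GRCh38.p14) held an entry for 64 of the 81 genes, with 79 starts in all. A run of at least 5 bases made only of C and T, beginning with C and covering the annotated start or beginning within 10 bases of it, was searched on the transcribed strand alone. It was found at 63 of 79 starts (79.7%), against 31.7% of 35116 starts of all genes in the same table. The runs were 5 to 23 bases long with a median of 11. With at least 7 bases required the shares were 69.6% and 12.6%, and with the run beginning within 5 bases they were 69.6% and 19.4%. The match is a description of the letters, not a measured start of transcription.

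The windows below, of 20 bases before and 20 bases from the annotated start on, are those of RPS27, the gene with a called rise at 24 h, of RPL36A, RPS25 and RPL26, which fell, of RPL39, RPLP0 and RPS12, which were not called, and of RPL6, which fell and whose annotated starts held no such run. Capitals mark the pyrimidine run, and each sequence reads 5′ to 3′ on the strand of the gene.
RPS27 (chr1:153990742-153990781, plus strand): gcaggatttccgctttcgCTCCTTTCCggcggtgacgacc
RPL36A (chrX:101390991-101391030, plus strand): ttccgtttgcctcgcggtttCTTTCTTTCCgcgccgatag
RPS25 (chr11:119018324-119018363, minus strand): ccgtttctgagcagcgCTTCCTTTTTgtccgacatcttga
RPL26 (chr17:8383174-8383213, minus strand): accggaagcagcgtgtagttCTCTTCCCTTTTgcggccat
RPL39 (chrX:119791611-119791650, minus strand): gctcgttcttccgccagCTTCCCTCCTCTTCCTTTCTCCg
RPLP0 (chr12:120201092-120201131, minus strand): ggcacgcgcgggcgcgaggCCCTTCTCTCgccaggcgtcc
RPS12 (chr6:132814549-132814588, plus strand): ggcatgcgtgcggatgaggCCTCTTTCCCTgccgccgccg
RPL6 (chr12:112409266-112409305, minus strand): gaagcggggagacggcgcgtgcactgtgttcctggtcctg

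The run was present in most genes with a window, whether or not they were called with the compound. Of the genes called lower at 24 h, 10 of 15 had a window and 9 of those held the run. Of the genes not called, 51 of 62 had a window and 47 held it. The median run was 10 bases in the first set and 11 bases in the second.

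Levels of the 81 genes were compared per length, as RPKM (reads per kilobase of annotated exon and per M reads of the library), averaged over the 8 libraries. The 79 genes with more than 10 reads had a median of 59.8 RPKM, with quartiles at 21.2 and 139 RPKM, and the highest was 155 times the lowest. With all annotated exon bases as the length, RPS12 of the 40S subunit stood highest at 644 RPKM (range 580.1 to 726 over the 8 libraries). Next came RPL7A at 361, the stalk protein RPLP0 at 344, RPL10A at 340.1 and RPL7 at 336 RPKM. The ranges of these 4 over the libraries overlap, so their order is not set beyond the spread, while the lowest library of RPS12 lies above every library of the other 4.

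By the same length, RPL15 stood lowest at 4.17 RPKM, then RPS27L at 4.45 and RPL35A at 5.42, with overlapping ranges over the libraries. RPL15 and RPS27L averaged 343 and 463.5 reads over annotated exons of 7222 and 9127 bases, so they were not the genes with the fewest reads. RPL35A averaged 192 reads. By share of all reads, before any correction for length, RPL19 averaged only 9.92 CPM, RPS26 12.0, RPS27 14.3, RPS10 14.5 and RPL35A 16.8 CPM, while RPLP0 averaged 1376 CPM. In all, 14 of these 79 genes were under 50 CPM and 12 were over 500 CPM. The reason for the low counts of some of these genes is not stated in the sources used here, and their fold changes rest on few reads. A shorter length, that of the longest coding transcript, raised the median to 139 RPKM and changed the order at both ends (Spearman 0.95 over 79 genes). By that length RPLP0 stood highest at 1024 RPKM, followed by RPS18 at 795 and RPS12 at 783, and RPS27L stood lowest at 6.32, where RPL15 had 9.45.

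RPL3L, the paralog of RPL3 known from heart and skeletal muscle, averaged 2.75 reads per library, and RPL10L, the testis paralog of RPL10, averaged 0.25 reads. RPL10L had reads in 1 of the 8 libraries. Both averaged under the floor of 3 reads, although RPL3L had up to 5 reads in a library. Neither passed the filter on low counts, so both were left out of the tests. RPL17 was read from the normalized table alone and entered a second fit. The remaining 78 genes were tested.

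Ribosomal protein genes have many processed pseudogenes, and reads that match both cannot be assigned from the tables. The annotation names 1588 pseudogenes after these genes, 1435 of them in the tables, and together they took 0.116% to 0.127% of reads, against 2.11% to 2.62% for the 81 genes. RPS27 was the one gene (of those with more than 10 reads) whose named pseudogenes held more reads than the gene, 17.8 against 14.3 CPM. The 50-base words of each gene's longest coding transcript were also looked up in transcripts of all other genes, pseudogenes or not. The share found there was highest in RPL10 (74.7%), RPS3A (74.6%), RPL17 (71.1%), RPL6 (69.4%), RPSA (67.3%) and RPS27 (66.5%), and was 2.5% in RPL39L. Found in pseudogenes were 22.0% of the words in RPL10, 73.7% in RPS3A, 56.3% in RPL17, 69.4% in RPL6, 65.7% in RPSA and 66.5% in RPS27. Across 79 genes, which share the libraries, the share over all other genes went with the level per length of the longest transcript at a Spearman rho of 0.38 and with CPM at 0.15. The part of shared sequence in the low counts was not tested. The read length is not given in the sources used here, so 50 bases is only an example.

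**Figure D1:**
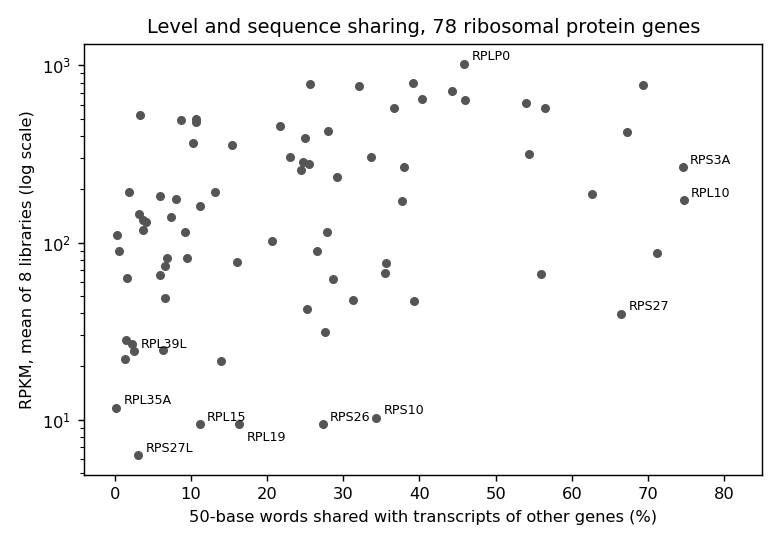
Mean level over 8 libraries (RPKM per length of the longest coding transcript, log scale) against the percentage of 50-base words shared with transcripts of other genes, 1 point for each of 78 ribosomal protein genes. RPS27 combines a low level with a share of 66.5%, while RPL35A and RPS27L are low with few shared words.

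Further, 20 of the 81 genes had more than 10% of their exonic bases inside another annotated gene. In RPL10 it was 55.5%, mostly DNASE1L1, in RPS10 39.4%, with the read-through gene RPS10-NUDT3, and in RPS25 20.8%, with TRAPPC4. The library kit does not mark the strand, so reads in such stretches cannot be divided between the genes, and the values of these genes are uncertain to that extent.

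The 81 genes together were followed as a share of all counted reads. At 12 h they took 2.29% and 2.22% of reads in vehicle libraries A and B, and 2.22% and 2.29% with EMD37. At 24 h they took 2.62% and 2.37% in vehicle and 2.11% and 2.29% with EMD37. At 12 h the groups overlap. At 24 h both EMD37 libraries lie below both vehicle libraries, by 0.297 percentage points between the means (2.20% ± 0.13 against 2.49% ± 0.17, SD, n = 2). In an exact two-sided permutation test over libraries this gave p = 0.333, the smallest value that 2 against 2 allows, so the design cannot reach the threshold. In vehicle alone the share was 0.235 percentage points higher at 24 h than at 12 h, also p = 0.333 by the exact permutation test.

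The 2 subunits showed the same order of the 24 h libraries. The 40S genes took 0.995% and 0.894% of reads in vehicle at 24 h and 0.786% and 0.837% with EMD37, and the 60S genes 1.62% and 1.48% in vehicle and 1.32% and 1.45% with EMD37. The share of 7SL RNA, an abundant noncoding RNA of the signal recognition particle, also varied at 24 h, with 4.95% and 7.30% of reads in vehicle and 7.68% and 5.74% with EMD37. Without 7SL reads in the total, the difference at 24 h was -0.301 percentage points.

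**Figure D2:**
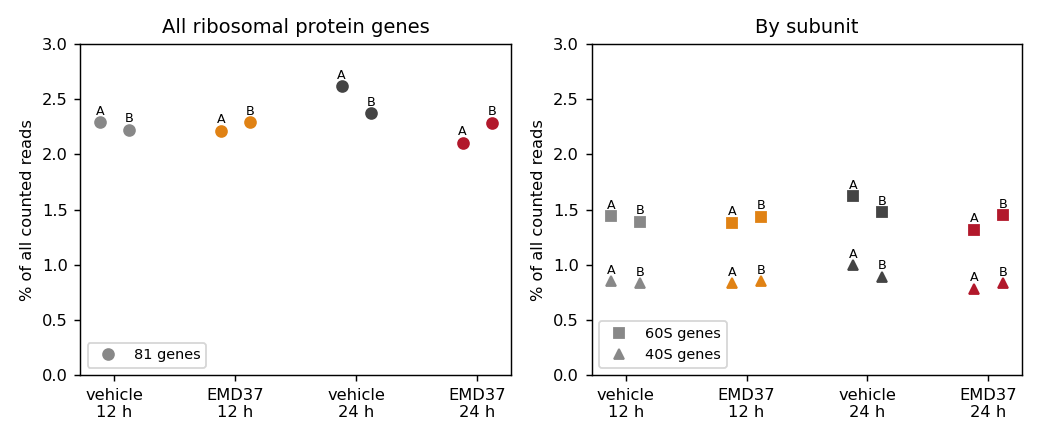
Percentage of all counted reads in the 81 ribosomal protein genes (left) and in the 60S and 40S genes apart (right), 1 point per library, marked A or B. At 24 h the vehicle libraries (2.62% and 2.37%) lie above the EMD37 libraries (2.11% and 2.29%), while the groups overlap at 12 h.

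At 12 h no ribosomal protein gene passed the threshold for a change with EMD37. Of 78 genes tested, 0 rose and 0 fell at an adjusted p below 0.05 in the quasi-likelihood test of edgeR, with Benjamini-Hochberg adjustment over all genes, and DESeq2 also called 0 and 0. Over all 14850 genes tested, 5.27% were called higher and 3.43% lower at this time by edgeR, and DESeq2 called 636 higher and 333 lower. At an unadjusted p under 0.05 there were 8 ribosomal protein genes higher and 7 lower, against 1699 higher and 1598 lower of all genes tested. Log2 fold changes, EMD37 over vehicle, ranged from -0.33 to 0.26 with a median of -0.0009, and 39 lay above 0 and 39 below. Their standard deviation across genes was 0.16, against 0.44 over all genes tested. The smallest adjusted p was 0.0647, for RPL37 of the 60S subunit (467 and 465 CPM in vehicle, 521 and 581 with EMD37, log2 0.24 ± 0.08, SE). A fit of the 12 h libraries alone, with its own spread, called 10 higher and 7 lower. In that fit 1394 of 14126 genes tested were higher and 1109 lower, so calls rose in general. Leaving out vehicle A or vehicle B at 24 h, libraries in neither group, gave calls both ways. Calls over all genes tested rose there as well. Without vehicle B at 12 h a gene was also called higher, while calls over all genes tested went down.

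At 24 h, 15 ribosomal protein genes fell and 1 rose, out of 78 tested. Over all genes tested at 24 h, 21.1% were called lower and 19.6% higher, so 15 of 78 lower is near the background and 1 of 78 higher is far under it. At an unadjusted p under 0.05 there were 20 lower and 3 higher, against 3748 lower and 3434 higher of all 14850 genes tested. DESeq2 called 13 lower and 1 higher, against 2313 lower and 2458 higher of all genes tested. No change reached 2-fold. The median log2 fold change was -0.07 over the 78 genes, with 53 below 0 and 25 above, against a median of -0.03 over all genes tested. The values spread less than those of all genes tested, with a standard deviation of 0.23 against 0.75. Their median standard error was also smaller, 0.098 against 0.158, and genes of like level were not compared. By subunit, 6 of 32 tested 40S genes fell and 1 rose, and 9 of 46 tested 60S genes fell and 0 rose.

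By library, both EMD37 values lay below both vehicle values in 27 of the 78 genes, a pattern seen in 35.4% of all genes tested, and above both in 4, seen in 31.4% of all genes. In the other 47 the groups overlapped.

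**Figure D3:**
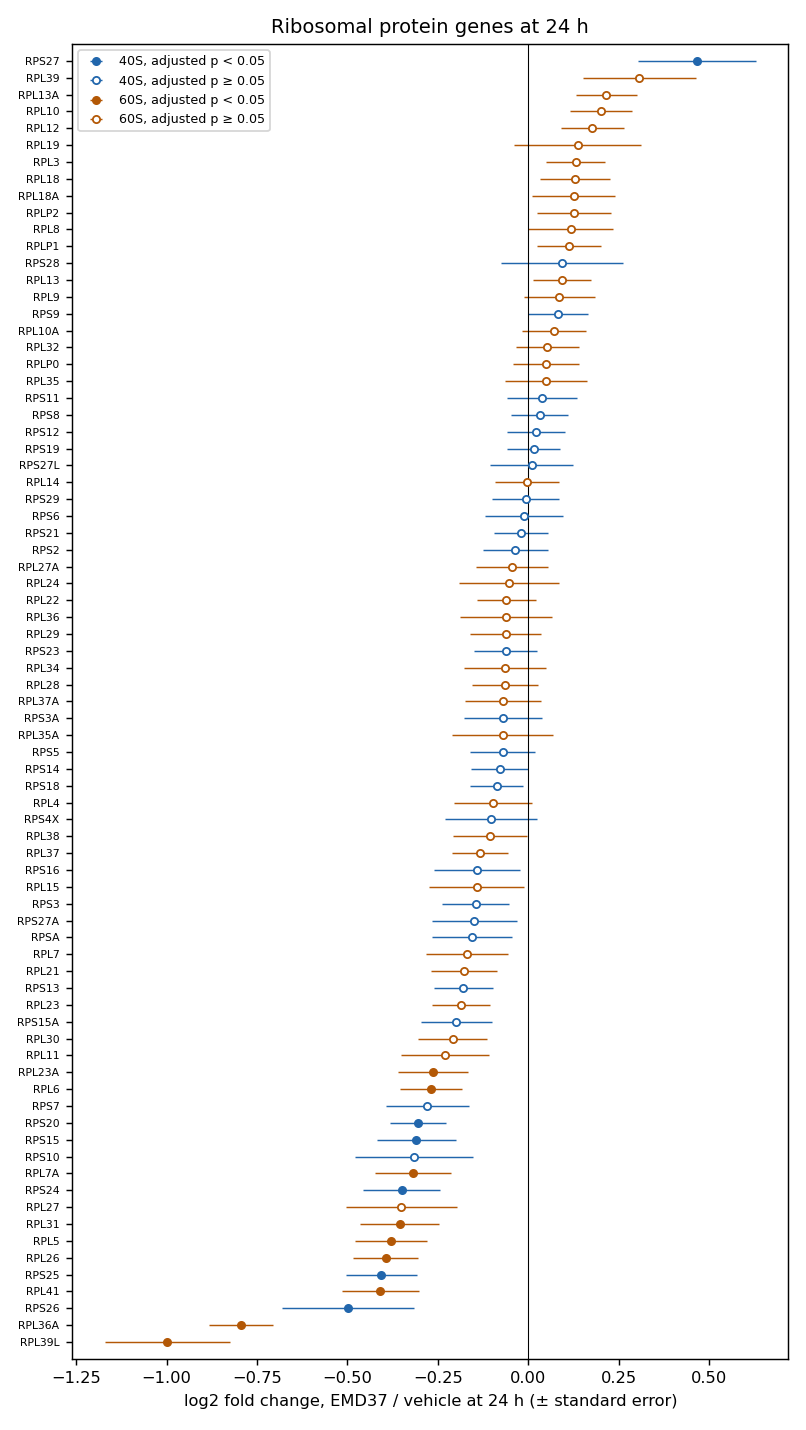
Log2 fold change of EMD37 over vehicle at 24 h with its standard error for each of 77 ribosomal protein genes, sorted, 40S in blue and 60S in brown, filled where the adjusted p was below 0.05. RPL39L and RPL36A stand apart at the lower end (-0.998 and -0.79), and RPS27 is the one filled point above 0.

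The largest fall was in RPL39L (ENSG00000163923, chr3:187120948-187180908, minus strand, hg38), the paralog of the exit-tunnel protein RPL39 that is expressed mainly in testis and in cancer cells. Its level was 28.1 and 19.4 CPM in vehicle and 11.7 and 12.2 CPM with EMD37 at 24 h. At 12 h it was 27.0 and 23.5 CPM in vehicle and 20.5 and 19.9 with EMD37. The groups did not overlap at either time, and vehicle A at 24 h lay well above vehicle B. The log2 fold change at 24 h was -0.998 ± 0.17 (SE, edgeR adjusted p = 0.000224), and at 12 h it was -0.32 (adjusted p = 0.262).

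RPL36A (ENSG00000241343, chrX:101390824-101396154, plus strand, hg38), a 60S protein near the site where tRNA leaves the ribosome, had the smallest p of the falls. It was at 81.2 and 76.3 CPM in vehicle and 45.8 and 45.1 CPM with EMD37 at 24 h, and at 80.99 and 75 and 66.8 and 68.0 CPM in the same order at 12 h. The 2 EMD37 libraries at 24 h were the lowest of the 8. The log2 fold change was -0.79 ± 0.09 at 24 h (edgeR adjusted p = 2.62e-06). Of its exonic bases 8.40% lie in the read-through gene RPL36A-HNRNPH2, and its 52 named pseudogenes averaged 55.4 CPM against 61.1 for the gene.

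Smaller falls at 24 h were seen in 5 further genes of both subunits. RPS26 (ENSG00000197728, chr12:56041351-56044697, plus strand, hg38), at the mRNA exit channel of the 40S subunit, had few reads, with 14.0 and 13.9 CPM in vehicle and 11.3 and 8.50 with EMD37 (log2 -0.50 ± 0.18, adjusted p = 0.0387). RPL41 (ENSG00000229117, chr12:56116586-56117943, plus strand, hg38), which encodes a very short peptide at the subunit interface, had 405 and 330.5 CPM in vehicle and 256 and 298 with EMD37 (log2 -0.41, adjusted p = 0.00564). RPS25 (ENSG00000118181, chr11:119015712-119018691, minus strand, hg38), a 40S protein needed by several internal ribosome entry sites, had 385 and 321 and 254 and 279 CPM in the same order (log2 -0.41, adjusted p = 0.00336). In these 3 genes both EMD37 libraries lay below both vehicle libraries.

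RPL26 (ENSG00000161970, chr17:8377516-8383250, minus strand, hg38), a 60S protein at the tunnel exit, had 70.7 and 75.2 CPM in vehicle and 56.6 and 54.3 with EMD37 at 24 h (log2 -0.39 ± 0.09, adjusted p = 0.00219). RPL5 (ENSG00000122406, chr1:92831983-92841924, plus strand, hg38), which carries the 5S rRNA together with RPL11 and with it can bind MDM2, had 57.3 and 56.9 CPM in vehicle and 40.1 and 47.5 with EMD37 (log2 -0.38 ± 0.10, adjusted p = 0.00595). RPL5 was also lower in vehicle at 24 h than at 12 h (66.0 and 66.5 CPM at 12 h), a difference that was not called (adjusted p = 0.192).

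A further 7 called falls were smaller still. They were RPL31 and RPL23A near the tunnel exit (log2 -0.36 and -0.26), RPS24 (-0.35), a gene mutated in some families with Diamond-Blackfan anaemia, RPL7A (-0.32), RPS15 (-0.31), RPS20 of the 40S head (-0.30) and RPL6 (-0.27). The adjusted p ran from 0.00541 in RPS20 to 0.0378 in RPL23A. RPS15 is the one of these whose libraries overlapped, with 236 and 300.2 CPM in vehicle and 237 and 196 with EMD37. RPL7A and RPL6 are abundant, at 1119.5 and 923 and 1070.5 and 919 CPM in vehicle and 749.7 and 887 and 817 and 836 CPM with EMD37.

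The one called rise at 24 h was in RPS27 (ENSG00000177954, chr1:153990755-153992155, plus strand, hg38), a zinc-finger protein of the 40S subunit also known as metallopanstimulin. It had 13.9 and 11.7 CPM in vehicle and 19.9 and 15.7 CPM with EMD37 (log2 0.47 ± 0.16, edgeR adjusted p = 0.0303). At 12 h it was at 16.8 and 15.2 CPM in vehicle and 16.7 and 16.9 with EMD37, so the 2 vehicle libraries at 24 h were the lowest of the 8. The rise was not called with library totals alone (edgeR adjusted p = 0.0839), by DESeq2 (adjusted p = 0.0668), without vehicle B at 24 h (edgeR adjusted p = 0.115), without EMD37 A at 24 h (0.262), without EMD37 A at 12 h (0.0507) or in a fit of the 24 h libraries alone (0.0769). This gene has the few reads and the large pseudogene share given above.

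Just outside the threshold at 24 h were RPL13A on the higher side (log2 0.22, adjusted p = 0.052, 874 and 798 CPM in vehicle and 914 and 1029 with EMD37) and RPS7 on the lower side (log2 -0.28, adjusted p = 0.0629). RPL17, read from the normalized table and fitted with the recovered genes, had 81.7 and 73.2 CPM in vehicle and 64.1 and 69.2 with EMD37 at 24 h (log2 -0.22, adjusted p = 0.0776).

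**Figure D4:**
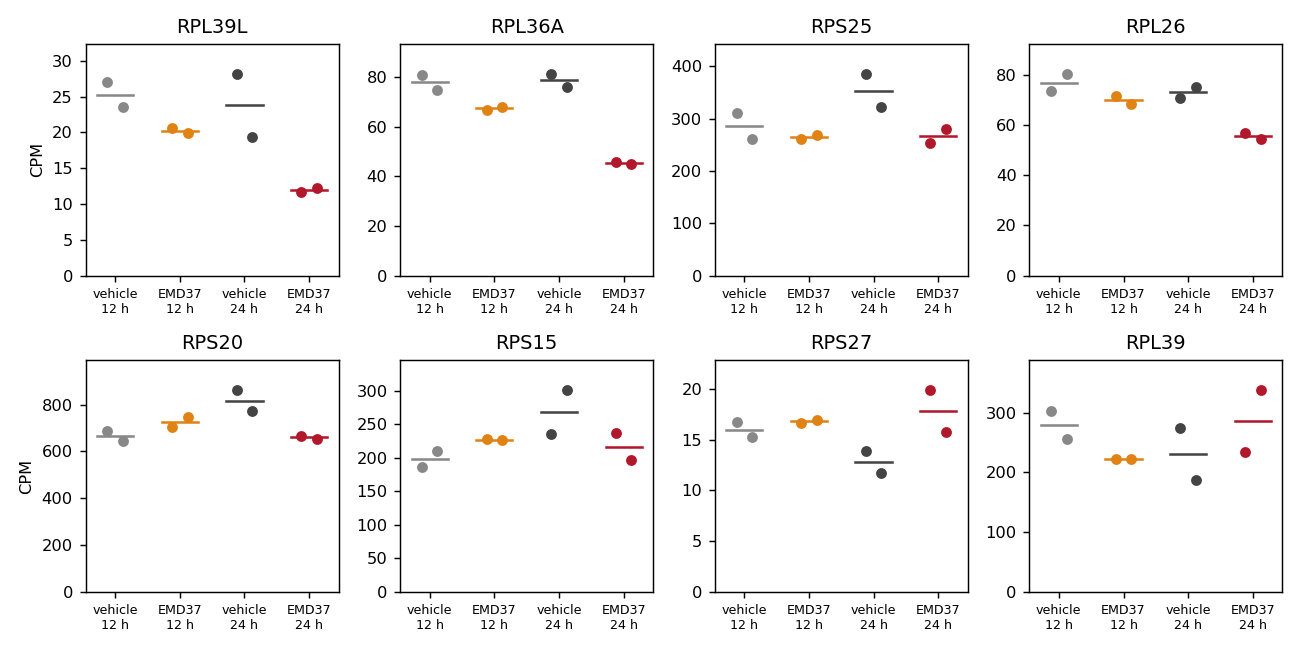
Level in CPM of 8 ribosomal protein genes in each library (points, A left and B right) with the group mean (bar), from 0. In RPL39L, RPL36A and RPL26 both EMD37 libraries at 24 h lie below the other 6, and in RPS27 the vehicle libraries at 24 h are the lowest.

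How far these falls hold was asked by 17 alternatives, among them other scalings and the omission of each library. RPL39L, RPL36A and RPL26 were called in all 17, with log2 fold changes from -1.24 to -0.67 in RPL39L, -0.88 to -0.72 in RPL36A and -0.48 to -0.35 in RPL26. RPS20 lost its call without vehicle A at 24 h (edgeR adjusted p = 0.11), and RPS25 and RPL5 lost theirs without EMD37 A at 24 h (0.0709 and 0.137). RPL41 and RPL7A lost theirs when either of these 2 libraries was left out, at adjusted p of up to 0.119 and 0.301, as did RPL31 (up to 0.507), RPS24 (up to 0.287) and RPL6 (up to 0.342). RPS26 and RPS15 lost theirs without EMD37 B at 24 h (0.311 and 0.302), RPS26 also without vehicle A at 24 h or EMD37 B at 12 h and in DESeq2 (adjusted p = 0.115), and RPS15 also without vehicle B at 24 h or either EMD37 library at 12 h. RPL6 was also lost without vehicle A or EMD37 B at 12 h or EMD37 B at 24 h, and RPL23A was called in 4 of the 17. The count of falls was 8 in a fit of the 24 h libraries alone, where 2539 of 14168 genes tested were lower. In that fit RPS26 (edgeR adjusted p = 0.0738), RPL7A, RPL31, RPS24, RPS15, RPL6 and RPL23A were not called. The counts of falls and of rises also moved when single libraries were left out. With library totals alone in place of TMM factors 26 fell and 0 rose, where all genes tested split into 2358 higher and 3942 lower. The direction of each of the 15 falls was the same in all 17 alternatives.

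Genes with set roles in the stress response of the ribosome or in signalling were followed whether or not they changed. RPL11, the partner of RPL5, was at 31.6 and 29.1 CPM in vehicle and 23.9 and 27.9 CPM with EMD37 at 24 h. The groups do not overlap, but the difference was not called (log2 -0.23 ± 0.12, adjusted p = 0.15). RPS6, the substrate of S6 kinase, was at 469 and 399 CPM in vehicle and 373 and 488 with EMD37 at 24 h, with overlapping groups (log2 -0.01 ± 0.11). RPS27A, made as a fusion with ubiquitin, was at 381 and 279 and 275 and 321 CPM in the same order and also overlapped (log2 -0.15 ± 0.12). RPSA, which is also described as a laminin receptor, was at 633 and 516 and 458 and 573 CPM (log2 -0.15 ± 0.11).

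The stalk of the 60S subunit recruits elongation factors and is built of RPLP0, RPLP1 and RPLP2. RPLP0 was at 1524 and 1596 CPM in vehicle and 1463 and 1766 with EMD37 at 24 h (log2 0.05 ± 0.09). RPLP1 was at 102 and 112 and 118 and 114 CPM (log2 0.11 ± 0.09), and RPLP2 at 158 and 139 and 141 and 183 CPM (log2 0.13 ± 0.10). None of the stalk genes was called at 12 h, at 24 h or in the interaction.

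Several genes have a paralog that encodes a related protein, and the members of a pair did not all move alike at 24 h. RPL39, the partner of RPL39L, was at 275 and 188 CPM in vehicle and 235 and 338 with EMD37. The groups overlap (log2 0.31 ± 0.16, adjusted p = 0.129). At 12 h RPL39 was at 303 and 256 CPM in vehicle and 223 and 222 with EMD37 (log2 -0.33, adjusted p = 0.225). RPL36AL, the relative of RPL36A outside the name rule, was at 488 and 428 CPM in vehicle and 513 and 575 with EMD37 at 24 h (log2 0.25, adjusted p = 0.0593), where RPL36A fell. RPL26L1 fell like RPL26, by 0.44 on the log2 scale (27.3 and 22.1 CPM in vehicle, 16.8 and 19.7 with EMD37, edgeR adjusted p = 0.024), although not in DESeq2 (0.0752), in a fit of the 24 h libraries alone (0.0685), without vehicle A at 24 h (0.256) or without EMD37 A at 24 h (0.220). RPS27L was at 50.1 and 41.4 and 46.1 and 46.0 CPM (log2 0.01), against the rise in RPS27. RPL3 was at 260.2 and 249 and 259 and 298 CPM (log2 0.13), while its paralog RPL3L was not tested. The differences between the members of a pair were not tested.

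Genes that are host to small nucleolar RNAs, which guide the modification of rRNA, numbered 28 of the 81, by annotated snoRNA genes within their bounds. The 27 of them that were tested had a median log2 fold change of -0.04 at 24 h and 4 falls, and the 51 tested genes without a snoRNA a median of -0.07 and 11 falls, where 21.1% of all genes tested were called lower.

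In 5 ribosomal protein genes, RPL36A, RPS15, RPL30, RPS20 and RPL37, the effect of EMD37 differed between the times. The difference between the effects at 24 h and 12 h, tested as an interaction, was called in these 5 of 78 genes, all lower at 24 h, where 7.94% of all genes tested were called lower and 7.96% higher. In DESeq2 the count was 5 lower and 0 higher, where 799 of 14850 genes tested were lower and 1027 higher. At an unadjusted p under 0.05 it was 10 lower and 3 higher, where 2265 of all genes were lower and 2117 higher. The median of the difference was -0.08 over the 78 genes and -0.04 over all genes tested.

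RPL36A had the largest called difference, -0.58 ± 0.12 (SE, edgeR adjusted p = 0.00422), from -0.21 at 12 h to -0.79 at 24 h, and it was called in all 16 alternatives. In the other 4, which had a called rise in vehicle from 12 h to 24 h, the fold change was above 0 at 12 h and below 0 at 24 h. The interaction contains that vehicle difference, so these calls are not separate from those in vehicle. From 12 h to 24 h the vehicle means went from 198 to 268 CPM in RPS15, 526 to 701 in RPL30, 666 to 816 in RPS20 and 466 to 588 in RPL37. The EMD37 means went from 227 to 216, 632 to 606, 726 to 661 and 551 to 536 CPM in the same order. None of the 4 was called at 12 h, and RPL30 and RPL37 were not called at 24 h either (adjusted p = 0.0948 and 0.186), so the test passed is that of the difference. RPS15 went from 0.20 to -0.31 (adjusted p of the difference 0.0335), RPL30 from 0.26 to -0.21 (0.0261), RPS20 from 0.12 to -0.30 (0.0148) and RPL37 from 0.24 to -0.13 (0.0279). Each of these 4 lost its call in 5 or 6 of the 8 fits that left out a library, at adjusted p of up to 0.171 in RPS15, 0.242 in RPL30, 0.136 in RPS20 and 0.231 in RPL37. RPL37 was also not called with DESeq2 size factors (0.0550) or with recovered reads (0.0557). The counts of lower and of higher calls moved when single libraries were left out, and so did those over all genes tested.

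**Figure D5:**
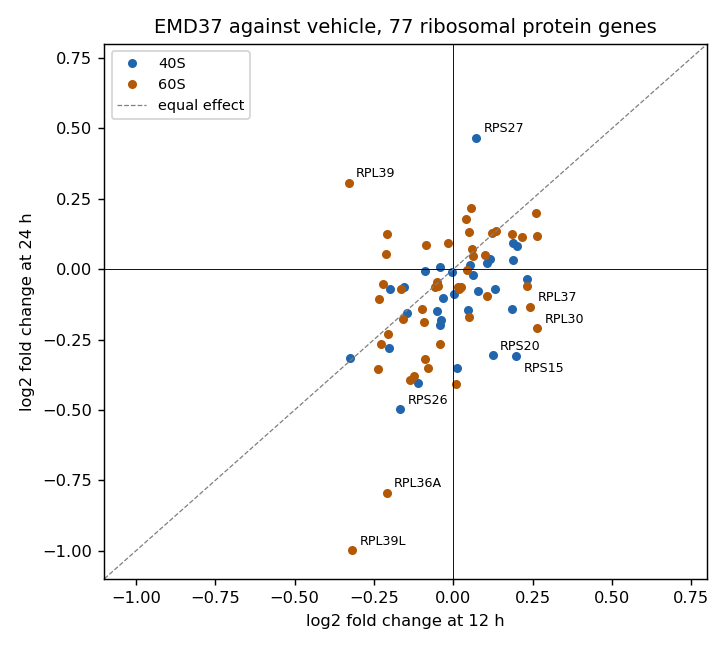
Log2 fold change of EMD37 over vehicle at 12 h (horizontal) and at 24 h (vertical) for 77 ribosomal protein genes, 40S in blue and 60S in brown, with the line of equal effects. RPL36A lies far below the line, and RPS15, RPL30, RPS20 and RPL37 lie right of 0 at 12 h and below 0 at 24 h.

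Vehicle cells were also compared between the times. These groups differ in the time in culture, the time with DMSO and the harvest, which cannot be told apart. From 12 h to 24 h, 5 of 78 genes rose and 0 fell, where 2.75% of all genes tested were called higher and 3.25% lower. At an unadjusted p under 0.05 there were 15 higher and 6 lower, against 1802 higher and 1634 lower of all 14850 genes tested. DESeq2 called 6 higher and 0 lower, against 301 higher and 435 lower of all genes tested. The 5 genes were RPS15 (log2 0.44), RPL30 (0.41), RPS2 (0.34), RPL37 (0.34) and RPS20 (0.29), with adjusted p from 0.0212 in RPL37 to 0.039 in RPS20.

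RPS20 was at 687 and 646 CPM in vehicle at 12 h and 861 and 771 at 24 h, against 704 and 748 and 667 and 654 CPM with EMD37. RPL30 was at 550.5 and 502 CPM in vehicle at 12 h and 750.2 and 651 at 24 h, and with EMD37 at 571 and 693 and 622 and 591. RPS2, at the entry of the mRNA channel, was at 527 and 624 CPM in vehicle at 12 h and 685 and 776 at 24 h. In RPS20, RPL30 and RPS2 both vehicle libraries at 24 h lay above both at 12 h. The vehicle libraries at 24 h serve this comparison and the treatment comparison at 24 h, so the 2 are not independent. The interaction uses the vehicle libraries of both times, so it is not independent of this comparison either. The 5 calls were all lost without vehicle A at 12 h and without vehicle B at 12 h, where calls over all genes tested also fell. They were also lost in a fit of the vehicle libraries alone (edgeR adjusted p from 0.0768 to 0.131). RPS20 was also not called with DESeq2 size factors (0.0633), recovered reads (0.0531) or TMM factors made without the ribosomal protein genes (0.0512). Without vehicle A at 24 h the median over the 78 genes went from 0.06 to -0.04, and over all genes tested from 0.01 to -0.01. The number of calls moved without either vehicle library at 24 h or either EMD37 library at 12 h. It moved over all genes tested as well.

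Other genes of the TOP class and of the pathway were read from lists, for comparison. Over all genes tested, as above, 5.27% were called higher and 3.43% lower at 12 h, and 19.6% higher and 21.1% lower at 24 h. Among 22 tested TOP mRNAs outside the ribosome, 0 were called at 12 h, and 5 rose and 1 fell at 24 h, with a median log2 fold change of 0.03. The share that rose is near the 19.6% of all genes and the share that fell under the 21.1%. TPT1, a small abundant protein also known as TCTP, was at 779 and 635 CPM in vehicle and 988 and 988 with EMD37 at 24 h (log2 0.48, adjusted p = 0.000735). EEF2, the elongation factor of translocation, rose by 0.41 (adjusted p = 0.00196), EEF1A1, which brings tRNA to the ribosome, by 0.37 (0.0123), and EIF4B, a cofactor of the helicase EIF4A, by 0.30 (0.00982). EEF1D, a subunit of the exchange factor of EEF1A1, fell by 0.40 (0.019). Without EMD37 B at 24 h EEF1A1, EIF4B and EEF1D were not called (adjusted p from 0.0736 to 0.205), nor were EIF4B and EEF1D without vehicle B at 24 h (0.0927 and 0.246), nor EEF1A1 and EEF1D in the fit of the 24 h libraries alone (0.0722 and 0.0578). The difference between this list and the ribosomal protein genes was not tested.

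Of 21 genes that regulate TOP mRNAs through mTORC1, 5 rose and 3 fell at 12 h, where 5.27% and 3.43% of all genes did, and 9 rose and 3 fell at 24 h, where 19.6% and 21.1% did. DDIT4, a stress-induced inhibitor of mTORC1, was at 8.94 and 8.98 CPM in vehicle and 142 and 141 with EMD37 at 12 h, and at 20.4 and 22.4 and 181 and 156 CPM in the same order at 24 h (log2 3.98 and 2.98). SESN2, another inhibitor that senses leucine, rose by 2.95 and 1.82 at 12 h and 24 h. PDCD4, which blocks EIF4A, rose by 0.90 and 1.93. RPS6KB1, the S6 kinase, was not called at 12 h (0.18) and rose by 1.001 at 24 h. Of the repressors of EIF4E, EIF4EBP1 rose by 0.96 at 24 h (0.54 at 12 h, a call that was lost without vehicle A at 12 h, either EMD37 library at 12 h or EMD37 B at 24 h, at adjusted p from 0.0583 to 0.255, and with library totals alone, at 0.0667) and EIF4EBP2 fell by 0.88 at 24 h and 0.49 at 12 h. LARP1 itself was not called, at 0.09 and 0.16. The list thus holds rises of inhibitors and of an effector, and its count gives no direction for mTORC1 activity, which was not measured.

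Ribosomal proteins outside the name rule, among them FAU, RACK1 and the L1 or AL paralogs, gave 0 calls at 12 h and 1 fall at 24 h among 7 tested, that of RPL26L1. The protein of FAU matures to RPS30. FAU had a log2 fold change of 0.05 at 24 h, and RACK1, a scaffold on the 40S subunit, one of -0.01.

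Of 24 tested chaperones and late assembly factors, 1 rose at 12 h, and 4 rose and 4 fell at 24 h, each way under the 19.6% and 21.1% of all genes. RSL24D1, a placeholder for RPL24 in the pre-60S particle, rose by 0.73 (adjusted p = 7.24e-06). EFL1, the GTPase that releases EIF6, rose by 0.93, and PNO1 of the pre-40S particle by 0.34. HEATR3, which carries RPL5 into the nucleus, fell by 0.51 (54.7 and 56.7 CPM in vehicle, 37.9 and 39.97 with EMD37, adjusted p = 0.000579), and MRTO4, a placeholder for RPLP0, fell by 0.30. Of 15 genes of ribosome quality control, 5 rose at 12 h, where 5.27% of all genes did, and 9 rose and 1 fell at 24 h, where 19.6% and 21.1% did. PELO and HBS1L, which split stalled ribosomes, rose by 0.60 and 0.36 at 24 h, ASCC3, a helicase that parts collided ribosomes, by 0.43, and LTN1, a ligase for stalled chains, by 0.37. MAP3K20, a kinase that senses collisions, fell by 0.34. The calls of PELO and ASCC3 at 12 h were lost when any 1 of the 4 libraries of that time was left out, that of PELO also with no filter on low counts (0.0526), and that of LTN1 when any but vehicle A was, at adjusted p of up to 0.255, and the calls at 24 h of the genes named here for assembly and quality control held in each of these fits.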

How the data were processed

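RNA-seq was done on 8 libraries of MDA-MB-231 cells in 4 groups of 2. The submitters' processing notes name FastQC, STAR, DESeq2 and build hg38, with versions, roles, read counter and strand setting not given in the sources used here. Per the labels, a TruSeq V2 kit, which does not mark the strand, was used. The authors deposited a count table of whole reads per gene, which fed every test. The normalized counts they deposited (signal) equal these reads after division by 1 size factor for each library. The count table, as used here, ends part-way through the gene IDs, with 36715 genes. Reads of 6912 further genes, RPL17 among them, were recovered from the normalized table (55296 of 55296 values whole within 0.01) and entered an alternative fit. Reads ranged from 8.99 M to 11.44 M per library, and recovered genes added 8.26% to 11.66% of all reads.

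Genes were named with GENCODE 29. The genes described, the lists and the rules were chosen with earlier results of these data known. In edgeR 4.0.16 (R 4.3.3), 14850 genes passed filterByExpr at a minimum count of 10, TMM factors were 0.948 to 1.03, and the fit of 1 mean for each group gave a biological coefficient of variation of 0.0733 with 4 residual degrees of freedom. The 4 comparisons, EMD37 against vehicle at 12 h and at 24 h, their difference (interaction) and vehicle at 24 h against 12 h, used the quasi-likelihood test of edgeR, with Benjamini-Hochberg adjusted p over all genes, called below 0.05. The code was tested on simulated data. Shares of reads were compared by exact permutation tests over libraries. CPM of single genes are TMM-scaled values of the count table (for RPL17, of the table with recovered reads), while levels per length and mean CPM over the 8 libraries use all reads. The floor was 3 reads.

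Genes printed with library values are RPLP0, RPLP1, RPLP2, RPSA, RPL5, RPL11, RPS6, RPS27A and those with suffix L, the up to 8 largest called rises and falls per treatment comparison, up to 4 each way in the other comparisons, and the 5 highest and lowest by length. From each list up to 5 genes by p at 24 h were named, and the genes nearest the threshold, with DDIT4, LARP1 and EIF4EBP1. RPL39, RPL3, RPL31, RPS24, RPL6, RPL23A, RPL17, FAU and RACK1 were added after their values were seen. Alternatives were DESeq2 size factors, library totals, TMM without the genes described, DESeq2 1.42.0, no filter, recovered reads, a replicate block, only the groups compared, and the omission of each library. Sequences came from RefSeq promoters (GRCh38.p14), and protein sequences were not used here. EEF1G was not analysed here. Values of 1 gene with a called fall at 24 h are not reported here and not plotted, while counts and summaries include it.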

Additional observations from a re-analysis of the deposited data

Results flagged for a closer look

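For 5 ribosomal protein genes the effect of EMD37 on the log2 scale differed between 24 h and 12 h by the interaction test (24 h minus 12 h): RPL36A by -0.58, RPS15 by -0.51, RPL30 by -0.47, RPS20 by -0.43 and RPL37 by -0.38. Among the genes listed for comparison, the difference was -1.004 in DDIT4, -1.12 in SESN2 and -0.39 in EIF4EBP2. It was 1.02 in PDCD4, 0.82 in RPS6KB1, 0.58 in RSL24D1, 0.74 in EFL1 and 0.44 in PNO1. In SESN2 the call was lost without vehicle B at 24 h (edgeR adjusted p = 0.0575). RSL24D1 lost it without EMD37 B at 12 h, and PNO1 without that library or vehicle B at 12 h. EFL1 and EIF4EBP2 lost it in 4 and 5 of the 8 fits that left out a library, at adjusted p of up to 0.122 over these genes. EIF4EBP2 also lost it with no filter on low counts (0.0652), and RPL37 with DESeq2 size factors (0.0550) and with recovered reads (0.0557).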

How the results depend on the processing

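No direction of a called gene reversed in any alternative, and the share of reads in the ribosomal protein genes kept its difference in both alternative totals. Counts of called genes moved more. Without a filter on low counts 1 gene was lower at 12 h, 2 were higher at 24 h and 1 higher in the interaction. In vehicle over time 9 were higher and 1 lower. Of the 30765 genes tested without that filter, 568 were lower at 12 h, 2833 higher at 24 h and 1184 higher in the interaction. In vehicle over time 623 of them were higher and 536 lower. DESeq2 size factors gave 2 higher at 24 h, where 3064 of 14850 genes tested were higher. Library totals alone gave 0 higher and 26 lower at 24 h, where 2358 and 3942 of all genes were. Fits of only the groups compared gave 10 higher and 7 lower at 12 h, where 1394 and 1109 of 14126 genes tested were. At 24 h they gave 0 higher and 8 lower, where 2469 and 2539 of 14168 genes were. In vehicle over time they gave 0 higher, where 42 of 14005 genes were.

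Leaving out each library in turn gave 0 to 6 higher and 0 to 2 lower at 12 h, 0 to 6 higher and 7 to 26 lower at 24 h, 0 to 5 higher and 1 to 12 lower in the interaction, and 0 to 12 higher and 0 to 9 lower in vehicle over time. Where this leaves 1 library in a group, that library is assumed to vary like the other groups. Counts over all genes tested also moved between these fits, but not always in the same direction as those of the ribosomal protein genes. The cause of these moves was not tested.

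The labels do not say whether the letters A and B pair the samples. The correlation of A minus B between groups ran from -0.16 to 0.16, which cannot decide this, as paired samples can also differ little by letter. With the letter as a replicate block the counts were 0 and 0 at 12 h, 1 higher and 15 lower at 24 h, 0 higher and 5 lower in the interaction, and 4 higher and 0 lower in vehicle over time (RPS20, adjusted p 0.0636, was not called). The letters were also crossed in EMD37 at 24 h, an alternative chosen after seeing the data. The counts were then 5 higher and 1 lower at 12 h, and 5 higher at 24 h. They were 2 higher and 10 lower in the interaction, and 11 higher and 3 lower in vehicle over time. Of 14850 genes tested, 1099 were then higher and 839 lower at 12 h, and 3243 higher at 24 h. In the interaction 1571 were higher and 1622 lower, and in vehicle over time 1022 and 924.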
